A study of Homo sapiens with 6 samples.

Results

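Matrix and cell-surface proteoglycans were followed by RNA-Seq in 21NT breast cancer cells, as 10 of the 20824 genes in the deposited table. They were *BGN* (biglycan), *DCN* (decorin), *VCAN* (versican), *SPOCK1* (testican-1), *HSPG2* (perlecan), *AGRN* (agrin), the syndecans *SDC1*, *SDC2* and *SDC4*, and the glypican *GPC1*. The genes were selected by symbol, and *BGN* and *SPOCK1* were put in the set because their levels were already known to differ strongly between these lines, so the values of both are given as a description with no test. In the test were 7 of the 10, those that averaged 0.5 RPKM or more across the libraries, and *DCN*, *VCAN* and *SDC2* were below this.

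The 21NT line grows as non-invasive, ductal carcinoma in situ-like breast epithelium. It was stably transfected with an empty vector (EV), with TBX3 isoform 1 (TBX3iso1) or with TBX3 isoform 2 (TBX3iso2), and all 3 lines were kept under G418 in medium with insulin, EGF and hydrocortisone. TBX3 is a T-box transcription factor, and the isoforms are splice forms of the 1 gene. Resistant clones were pooled to make each line. Each construct was in 1 line, so the isoform, the pool of clones and the total *TBX3* level cannot be told apart. From each line 2 libraries were made, 6 in all. The labels do not say whether these came from separate cultures, so the SDs and p-values cover the spread between the 2 libraries of a line, which may be technical. RPKM divides the reads of a gene by its length and by the depth of the library, so levels of different genes can be compared on it. Differences are log2 fold changes on the log2(RPKM + 0.1) scale, which understate the change of low genes, and a gene was called where the limma adjusted p was under 0.05 and the change exceeded 1.5-fold.

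A proteoglycan is a core protein that carries long sulfated sugar chains. Biglycan and decorin are small leucine-rich proteoglycans that bind collagen and growth factors, versican is a large hyaluronan-binding proteoglycan, and testicans are secreted proteoglycans of the matrix. Perlecan and agrin are heparan sulfate proteoglycans of basement membranes. Syndecans span the cell membrane and glypicans are held to it by a lipid anchor, and both present growth factors to their receptors through heparan sulfate. In breast tissue decorin, biglycan and versican are known chiefly as products of stromal fibroblasts, while syndecan-1 and syndecan-4 are typical of epithelium.

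The promoter windows of *BGN* and *VCAN* are shown because the isoform libraries of these matrix genes lay on opposite sides of EV, *BGN* below it and *VCAN* above it, and because the lines differ in a DNA-binding factor. They are RefSeq sequences of GRCh38.p14 on the + strand, from 250 bases before the start site up to the base before it, at chrX:153494730-153494979 for *BGN* and chr5:83471494-83471743 for *VCAN*. Capitals mark the only match to the T-box half-site letters GGTGTGA or the variant GGTGTCA, searched on both strands.

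*BGN*: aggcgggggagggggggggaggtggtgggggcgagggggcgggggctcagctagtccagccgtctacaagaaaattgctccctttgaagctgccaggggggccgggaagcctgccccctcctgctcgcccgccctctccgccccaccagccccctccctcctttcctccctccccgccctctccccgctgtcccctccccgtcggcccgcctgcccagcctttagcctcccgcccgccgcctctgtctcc
*VCAN*: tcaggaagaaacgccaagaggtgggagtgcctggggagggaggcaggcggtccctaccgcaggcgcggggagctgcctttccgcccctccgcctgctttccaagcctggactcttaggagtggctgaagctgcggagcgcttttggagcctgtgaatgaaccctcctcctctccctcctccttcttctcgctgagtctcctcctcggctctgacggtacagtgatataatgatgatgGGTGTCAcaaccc

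The *VCAN* window held GGTGTCA once, with its first base at position -13 from the start site, and the *BGN* window held neither set of letters. Of the 10 genes, 6 had a window in the RefSeq table (*HSPG2*, *SDC1* with 2 windows, *GPC1*, *VCAN*, *SDC4* and *BGN*), and the other 5 genes' windows beside *VCAN* held no match over 300 bases. Over 35116 windows of 300 bases, 3.45% held GGTGTGA and 3.14% held GGTGTCA. The *BGN* sequence was 74% G or C with 16 CG pairs, and the *VCAN* sequence was 60.8% G or C with 12 CG pairs. A match in these letters is a description and not a binding site.

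The libraries held between 43176600 and 54512400 alignments, and the log2 values of replicates correlated with Pearson's r between 0.992 and 0.996 over 12805 genes. *TBX3* was 8.52 and 8.24 RPKM in EV, 13.1 and 11.4 RPKM with TBX3iso1 and 17.5 and 15.5 RPKM with TBX3iso2, as a total that does not separate the isoforms. Its log2 fold change with TBX3iso1 was 0.54 (limma adjusted p = 0.00378), under the fold threshold and so not called. With TBX3iso2 it was 0.97 (adjusted p = 0.000257) and called. The isoform lines differed by 0.43 (adjusted p = 0.0275), under the fold threshold. Most epithelial markers were high, with *KRT8* between 541 and 768 RPKM and *EPCAM* between 165 and 232 RPKM, although *KRT14* was at or below 0.0398 RPKM. Mean RPKM in EV, TBX3iso1 and TBX3iso2, in that order, was 145, 89.2 and 102 for *CDH1*. It was 680, 459 and 414 for *KRT19* and 434, 298 and 258 for *ERBB2*. For *KRT5* it was 2.83, 6.64 and 6.87, and for *KRT17* 5.32, 5.39 and 7.87. *KRT7* had 567, 587 and 725, and *KRT18* had 604, 610 and 747. The summed level of the 10 epithelial markers was 3236 to 3351 RPKM in EV, 2668 to 2921 RPKM with TBX3iso1 and 3025 to 3394 RPKM with TBX3iso2.

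Syndecan-1, syndecan-4, agrin and glypican-1 made up most of the transcripts of the 10 genes in every line. These 4 genes were 92.5% to 97.2% of the summed RPKM of the 10 genes. Cores outside the 10, such as *CD44* and *TSKU*, are not in this sum. The sum was 293 and 274 RPKM in EV, 307 and 306 RPKM with TBX3iso1 and 298 and 295 RPKM with TBX3iso2. *BGN*, *DCN*, *VCAN* and *SPOCK1* together were a small part of it, with 9.75 and 9.91 RPKM in EV, 5.67 and 5.44 RPKM with TBX3iso1 and 2.02 and 1.59 RPKM with TBX3iso2. Within this group *BGN* was 81.4% and 81.1% in EV, and *SPOCK1* was 72.0% and 68.5% with TBX3iso1. With TBX3iso2 *BGN* was again the larger part, at 54.1% and 55.7%, of a smaller sum. These sums follow the 2 genes chosen for their change and were not tested.

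**Figure D1:**
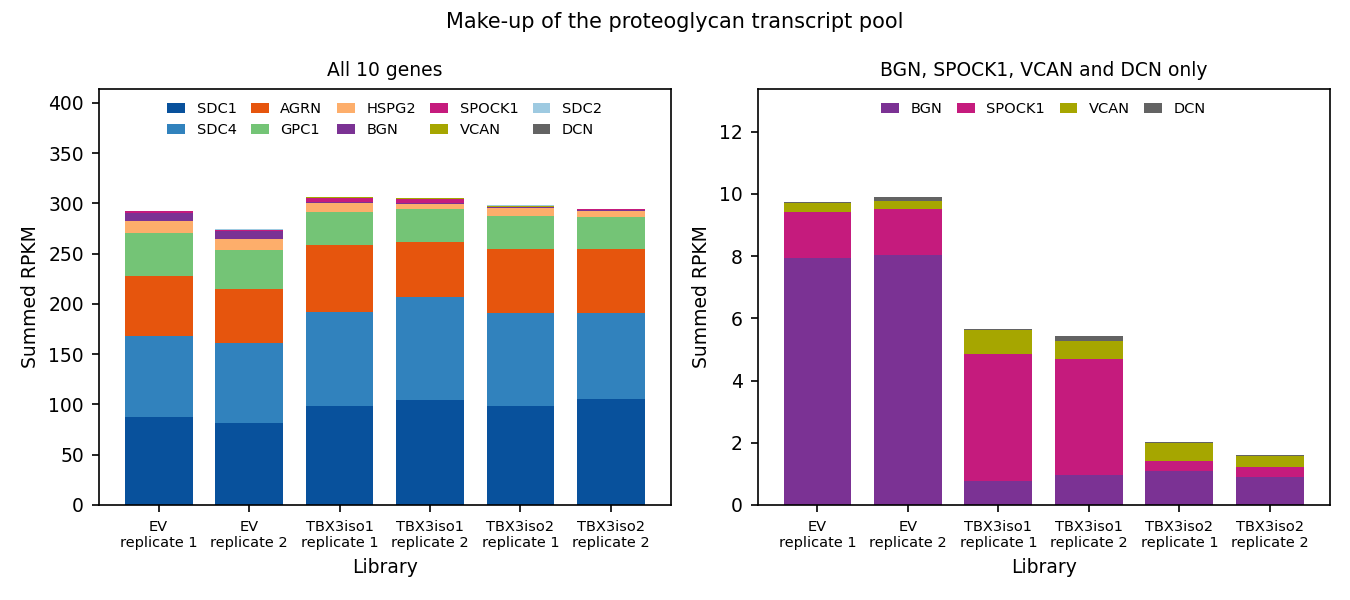
Summed RPKM of the proteoglycan genes in each of the 6 libraries, stacked by gene, for all 10 genes (left) and for *BGN*, *SPOCK1*, *VCAN* and *DCN* (right, its own axis). The total lies between 274 and 307 RPKM in all libraries, whereas the right-hand group goes from mostly *BGN* in EV to mostly *SPOCK1* with TBX3iso1 and to a small remainder with TBX3iso2.

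The order of levels in EV was *SDC1*, *SDC4*, *AGRN*, *GPC1*, *HSPG2*, *BGN*, *SPOCK1*, *VCAN*, *SDC2* and *DCN*, and the libraries of *VCAN* and *SDC2* overlapped. With TBX3iso1 *SPOCK1* stood above *BGN*, the libraries of *SDC1* and *SDC4* overlapped, and so did those of *BGN* and *VCAN*. With TBX3iso2 *SPOCK1* stood below *SDC2* and *VCAN*, which overlapped with each other, and only *DCN* was lower. The 5 highest genes kept their places in all 3 lines, apart from the overlap of *SDC1* and *SDC4*.

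**Figure D2:**
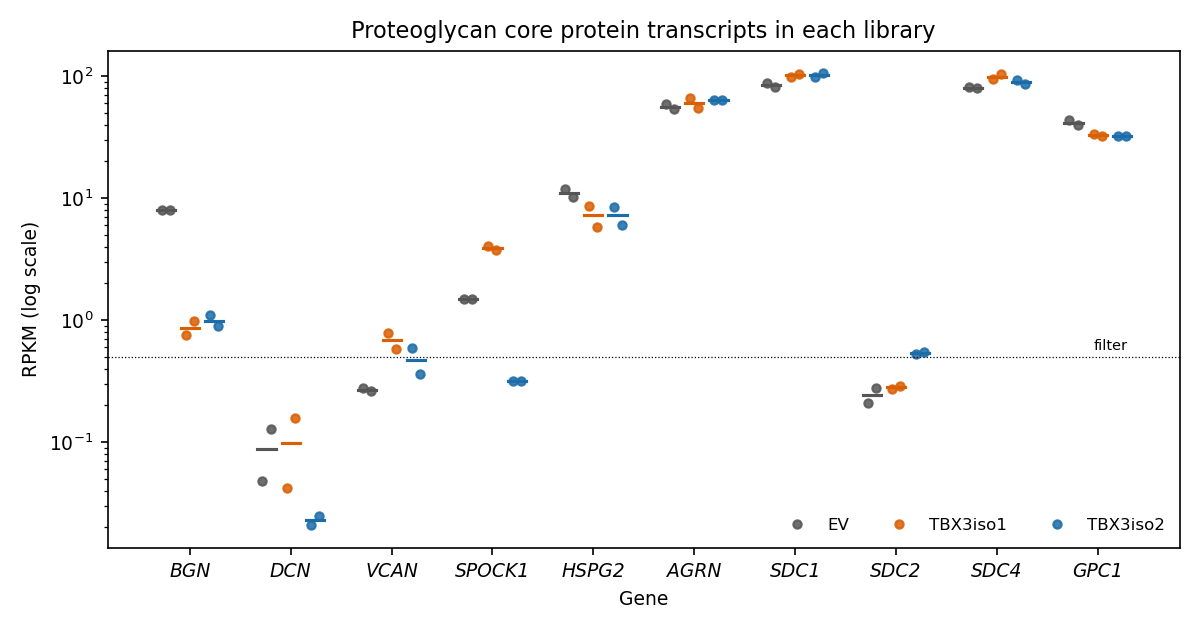
RPKM of the 10 genes in each library on a log axis, with points for libraries, short bars for the mean of the 2 libraries of a line and a dotted line at 0.5 RPKM, to which a gene's mean over the 6 libraries was compared for the test. *BGN* falls to near 1 RPKM in both isoform lines, *SPOCK1* lies above EV with TBX3iso1 and below it with TBX3iso2, and *SDC1*, *SDC4*, *AGRN* and *GPC1* stay between 32.1 and 105 RPKM in all libraries.

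*BGN*, which lies on chromosome X from 152760438 to 152775004 (GRCh37, + strand), was 7.94 and 8.03 RPKM in EV. It was 0.759 and 0.977 RPKM with TBX3iso1 and 1.09 and 0.888 RPKM with TBX3iso2. All 4 isoform libraries lay far below both EV libraries, and those of the isoforms overlapped. The mean of EV was 7.98 ± 0.0660 RPKM (SD, n = 2), that of TBX3iso1 was 0.868 ± 0.154 RPKM, and that of TBX3iso2 was 0.990 ± 0.144 RPKM. These are 9.20-fold and 8.07-fold lower than EV, with log2 differences of -3.07 and -2.90. The isoform lines differed by 0.17. *BGN* was thus low in both isoform lines, where *SPOCK1* separated these lines.

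*SPOCK1*, on chromosome 5 from 136310987 to 136934068 (GRCh37, − strand), was 1.48 RPKM in both EV libraries. It was 4.08 and 3.72 RPKM with TBX3iso1 and 0.317 and 0.319 RPKM with TBX3iso2. Each library of TBX3iso1 lay above EV and each of TBX3iso2 below it, with no overlap between any of the lines. The mean was 2.63-fold higher with TBX3iso1 than in EV and 4.67-fold lower with TBX3iso2, with log2 differences of 1.34 and -1.92. Between the isoforms the mean was 12.3-fold lower with TBX3iso2 (log2 difference -3.26). The EV values are equal to all deposited digits, and the reads behind them are not. The values of the 6 libraries fit reads in the proportion 317, 250, 804, 713, 63 and 53, in the order EV, TBX3iso1, TBX3iso2 with replicate 1 first, within 0.004 of whole numbers. The depth of EV replicate 2 relative to replicate 1 was 0.792 by alignments and 0.789 as estimated from the RPKM values of low genes. Equal RPKM gives reads in the latter proportion by construction.

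*DCN*, on chromosome 12 from 91534261 to 91576994 (GRCh37, − strand), was barely detected. It was 0.0483 and 0.129 RPKM in EV, 0.0419 and 0.156 RPKM with TBX3iso1 and 0.0208 and 0.0248 RPKM with TBX3iso2. The EV and TBX3iso1 libraries overlapped, and both TBX3iso2 libraries lay below the other 4. The values fit reads in the proportion 10, 21, 8, 29, 4 and 4, the smallest whole numbers possible. With the filter on low values left out, the log2 fold changes against EV were 0.05 with TBX3iso1 and -0.58 with TBX3iso2 (limma adjusted p = 0.962 and 0.29). No difference of *DCN* was detectable at this depth. *BGN*, its closest relative in the set, was therefore the one small leucine-rich core of the pair with a sizeable level in EV.

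*VCAN*, on chromosome 5 from 82767437 to 82878122 (GRCh37, + strand), stayed below 1 RPKM. It was 0.277 and 0.261 RPKM in EV, 0.789 and 0.583 RPKM with TBX3iso1 and 0.586 and 0.362 RPKM with TBX3iso2. Every isoform library lay above both EV libraries, and the isoform lines overlapped. *VCAN* was not in the test, with a mean of 0.476 RPKM. With the filter left out, its log2 fold change with TBX3iso1 was 1.08 (95% confidence interval 0.42 to 1.74, limma adjusted p = 0.0367), which is past both thresholds. With TBX3iso2 it was 0.61 (-0.05 to 1.27, adjusted p = 0.145), and between the isoforms it was -0.47 (adjusted p = 0.357). Leaving out an EV library put *VCAN* above the filter, where it was not called for TBX3iso1. Those fits hold other genes than the fit without the filter, so they cannot show how far its value rests on the EV libraries. The antisense RNA *VCAN-AS1* overlaps 453 of its exonic bases, and whether the counting used strand is not stated.

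Of the basement membrane cores, *HSPG2* was called lower with both isoforms and *AGRN* was not called, and the difference between the genes was not tested. *HSPG2*, on chromosome 1 from 22148737 to 22263803 (GRCh37, − strand), was 11.9 and 10.2 RPKM in EV, 8.65 and 5.81 RPKM with TBX3iso1 and 8.41 and 5.99 RPKM with TBX3iso2. All 4 isoform libraries lay below those of EV. The change was -0.63 on the log2 scale in both comparisons with EV (95% confidence interval -1.12 to -0.13 for each, limma adjusted p = 0.0445 with TBX3iso1 and 0.0441 with TBX3iso2). The isoforms differed by 0.00 (-0.49 to 0.50, adjusted p = 0.996). The calls are weak: both were lost with a pseudocount of 1 RPKM, without the filter, with median-ratio scaling, without either EV library and without replicate 2 of the isoform concerned. Without replicate 2 of TBX3iso1 the log2 fold change was -0.34 (adjusted p = 0.213), and without replicate 2 of TBX3iso2 it was -0.39 (adjusted p = 0.166).

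The longest annotated transcript of *HSPG2* is 14341 bases. Genes with a transcript of at least 8000 bases (n = 1118) differed from EV by a median log2 value of -0.23 for TBX3iso1 and -0.17 for TBX3iso2, while genes under 2000 bases (n = 2167) had 0.08 and 0.11. Replicate 2 of the isoform lines was also lower than replicate 1 for the long genes, by a median of -0.19 and -0.29, and for *HSPG2* by -0.57 and -0.48. The part of transcript length in the *HSPG2* and *VCAN* values was not tested. *HSPG2* also shares 2122 exonic bases with *LDLRAD2* on the opposite strand.

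*AGRN*, on chromosome 1 from 955500 to 991498 (GRCh37, + strand), was 59.1 and 53.3 RPKM in EV, 66.5 and 54.4 RPKM with TBX3iso1 and 63.8 and 63.1 RPKM with TBX3iso2. The TBX3iso1 libraries overlapped those of EV, and the TBX3iso2 libraries lay above them. The log2 fold changes were 0.10 (95% confidence interval -0.15 to 0.35, limma adjusted p = 0.465) and 0.18 (-0.07 to 0.42, adjusted p = 0.208), and between the isoforms 0.08 (-0.17 to 0.32, adjusted p = 0.68). These intervals leave out a change of 1.5-fold in either direction.

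*SDC1* was the highest of the 10 genes, and it lies on chromosome 2 from 20400558 to 20425194 (GRCh37, − strand). It was 87.5 and 81.5 RPKM in EV, 98.5 and 104 RPKM with TBX3iso1 and 98.3 and 105 RPKM with TBX3iso2. All isoform libraries lay above EV and overlapped with each other. The log2 fold changes were 0.26 with TBX3iso1 (95% confidence interval 0.07 to 0.45, limma adjusted p = 0.0327) and 0.27 with TBX3iso2 (0.08 to 0.46, adjusted p = 0.0296), under the fold threshold. The isoforms differed by 0.01 (-0.18 to 0.19, adjusted p = 0.974).

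*SDC4*, on chromosome 20 from 43953928 to 43977064 (GRCh37, − strand), was 80.9 and 79.9 RPKM in EV, 93.8 and 103 RPKM with TBX3iso1 and 92.9 and 86.0 RPKM with TBX3iso2. The libraries of the 3 lines did not overlap. The log2 fold change was 0.29 with TBX3iso1 (95% confidence interval 0.10 to 0.48, limma adjusted p = 0.0238) and 0.15 with TBX3iso2 (-0.04 to 0.35, adjusted p = 0.166). The isoforms differed by -0.14 (-0.33 to 0.06, adjusted p = 0.309). Leaving out either EV library took the adjusted p of *SDC1* and *SDC4* in the TBX3iso1 comparison above 0.05, to between 0.102 and 0.233, and leaving out TBX3iso1 replicate 2 took it to 0.149 and 0.136. For *SDC1* with TBX3iso2 it was 0.0958 and 0.223 without EV replicate 1 and 2, and 0.118 without TBX3iso2 replicate 2.

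*GPC1*, on chromosome 2 from 241375080 to 241407493 (GRCh37, + strand), was 43.4 and 39.3 RPKM in EV, 33.2 and 32.3 RPKM with TBX3iso1 and 32.1 and 32.4 RPKM with TBX3iso2. All isoform libraries lay below EV and overlapped with each other. The log2 fold changes were -0.34 (95% confidence interval -0.51 to -0.16, limma adjusted p = 0.00914) and -0.36 (-0.53 to -0.18, adjusted p = 0.00696), also under the fold threshold. Between the isoforms the difference was -0.02 (-0.20 to 0.15, adjusted p = 0.888). Without replicate 1 of EV the adjusted p rose to 0.100 and 0.0816. *GPC1* was not called in any of the 3 comparisons.

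*SDC2*, a syndecan known from mesenchymal cells, was the low member of its family, with 0.123% to 0.287% of the summed RPKM of the 3 syndecans. It was 0.208 and 0.280 RPKM in EV, 0.274 and 0.289 RPKM with TBX3iso1 and 0.530 and 0.550 RPKM with TBX3iso2. The TBX3iso2 libraries lay above the other 4, and those of EV and TBX3iso1 overlapped. *SDC2* was not in the test, with a mean of 0.355 RPKM. With the filter left out, the log2 fold change with TBX3iso2 was 0.91 (95% confidence interval 0.51 to 1.30, limma adjusted p = 0.0152), past both thresholds. It was 0.16 with TBX3iso1 (adjusted p = 0.484), and TBX3iso2 exceeded TBX3iso1 by 0.75 with an adjusted p of 0.0632, so a difference between the isoforms did not pass the test.

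Of the 8 genes other than *BGN* and *SPOCK1*, 5 were tested. Against EV, 0 of the 5 were called higher and 1 lower (*HSPG2*) with TBX3iso1, where 7.46% of all genes tested were called higher and 14.1% lower. At an unadjusted p under 0.05 in limma, without the fold threshold, 2 of the 5 were higher and 2 lower. With TBX3iso2 the counts were again 0 and 1, where 8.94% were called higher and 12.3% lower, and at an unadjusted p under 0.05 they were 1 and 2. Between the isoforms 0 of the 5 were called in limma's test, and 0 had an unadjusted p under 0.05, where 3.47% of genes were called higher and 2.82% lower with TBX3iso2. The counts of the members are too small to be read against these shares, and at the unadjusted p no share of all genes was counted. Scaling changed the split of the background: with quantile normalization 1259 genes were called higher and 1313 lower for TBX3iso1 against EV, instead of 955 and 1802, and 351 higher and 435 lower between the isoforms, instead of 444 and 361. Both comparisons with EV share the EV libraries.

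**Figure D3:**
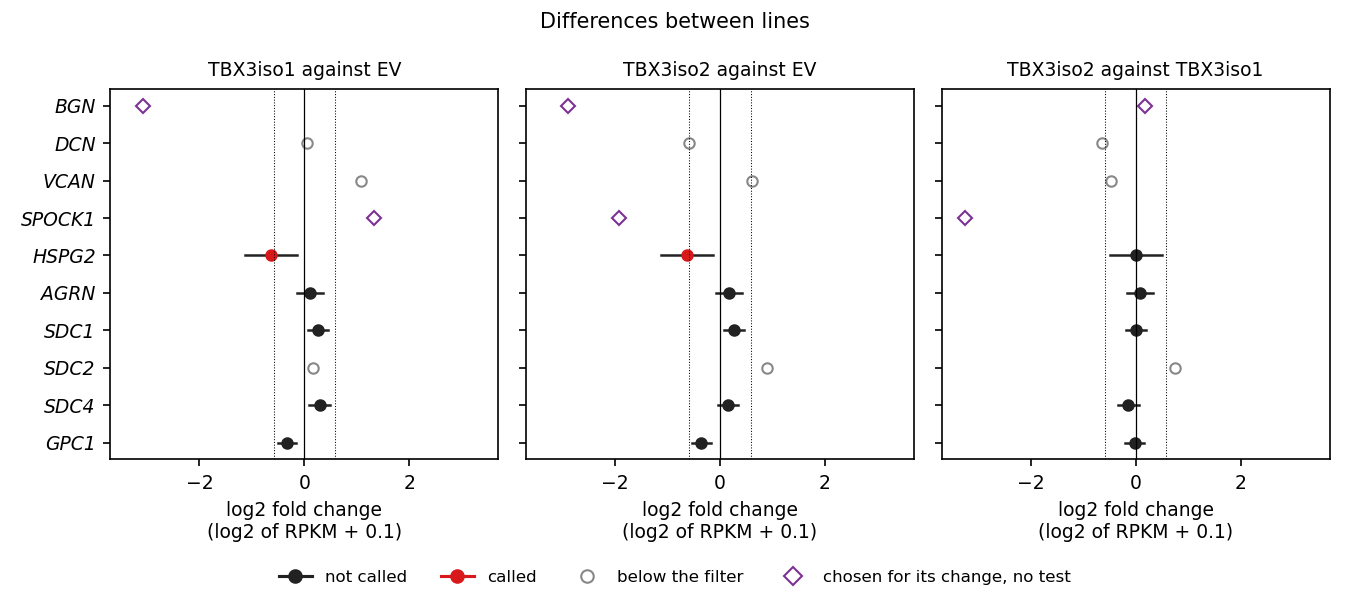
Log2 fold changes of the 10 genes in the 3 comparisons, the first line named minus the second. Filled points carry 95% confidence intervals from limma, open circles are genes below the filter, diamonds are the 2 genes chosen for their change, and dotted lines mark 1.5-fold. *HSPG2* is the only filled point past 1.5-fold against EV, and the tested genes lie near 0 between the isoforms.

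The genes whose profile over the 6 libraries lay nearest to that of *BGN*, by the root mean square difference of log2 values centred on EV, were *CXCL17* (0.127), *GBP2* (0.150), *AGT* (0.166), *SUSD2* (0.178) and *DIO2* (0.230). *SUSD2* had the highest level of these, with a mean in EV of 74.8 RPKM that was 8.95 RPKM in the TBX3iso1 line and 9.40 RPKM in the TBX3iso2 line. For *SPOCK1* the nearest were *SLC2A3* (0.210), *NRCAM* (0.304), *SPRR3* (0.340), *MAL* (0.400) and *C1QL1* (0.413). *SLC2A3*, a glucose transporter, had a mean in EV of 1.89 RPKM, against 3.95 RPKM in the TBX3iso1 line and 0.484 RPKM in the TBX3iso2 line. These measures describe 6 libraries of 3 lines, and carry no test.

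The wider proteoglycan pathway was read from 9 lists that hold 135 other genes, of which 125 were in the table and 83 were tested. With TBX3iso1 13 of the 83 were called higher and 10 lower than in EV, which is 15.7% and 12.0% of them where 7.46% and 14.1% of all genes tested were called. Their median log2 fold change was 0.04, and that of all genes tested was -0.05. With TBX3iso2 10 were higher and 16 lower (12.0% and 19.3%, where 8.94% and 12.3% of all genes were), with a median of -0.06 against 0.00 for all genes. Between the isoforms 0 were called higher and 10 lower with TBX3iso2 (0% and 12.0%, where 3.47% and 2.82% of all genes were), with a median of -0.09 against 0.05. At an unadjusted p under 0.05 in limma, without the fold threshold, 12 were higher and 24 lower. The share of all genes at this looser threshold was not counted, so these numbers have no background to be read against. The count of 10 lower fell to 1 in a linear model without moderation of the variance, and 1 gene was called higher when either TBX3iso2 library was left out.

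**Figure D4:**
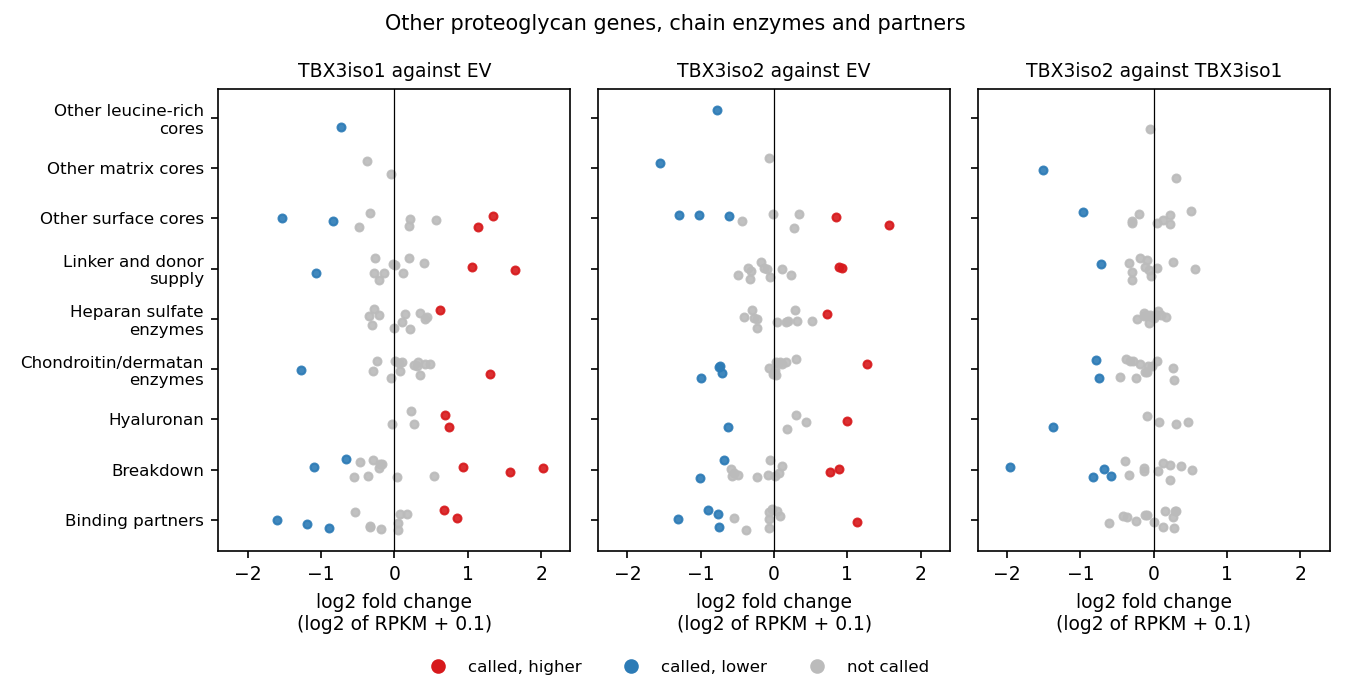
Log2 fold changes of the 83 tested genes of the 9 lists, 1 point a gene, by list (vertical spread within a list has no meaning). Red and blue points were called higher and lower, and grey points were not called. Calls against EV go in both directions in most lists, and the 10 called between the isoforms are lower with TBX3iso2.

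Other core proteins were mostly low or changed one by one. Of 14 other leucine-rich cores only *TSKU* (tsukushi) was tested, and it was called lower with both isoforms, by -0.73 and -0.77 on the log2 scale (limma adjusted p = 0.000229 and 0.000175). Its level was 71.1 and 67.9 RPKM in EV and between 40.1 and 43.2 RPKM in the isoform libraries. Of 10 other matrix cores 2 were tested, and *SRGN*, the serglycin of secretory granules, was called lower with TBX3iso2 at -1.55 (adjusted p = 0.00117). The other, *COL18A1*, had means of 18.2, 14.1 and 17.3 RPKM in EV, TBX3iso1 and TBX3iso2 and was not called. Of 13 other surface cores 9 were tested. The highest were *CD44*, with means of 53.0, 78.6 and 64.2 RPKM in EV, TBX3iso1 and TBX3iso2, and *NRP1*, with 41.9, 48.1 and 41.8 RPKM. Neither was called. *CD44* exceeded EV by 0.57 and 0.28 (limma adjusted p = 0.000759 and 0.0177), under the fold threshold. *GPC4* and *CSPG5* were called higher with both isoforms (1.34 and 1.57 for *GPC4*, 1.13 and 0.84 for *CSPG5*), and *GPC2* and *TGFBR3*, the betaglycan that binds TGF-beta, were called lower with both (-1.53 and -1.03 for *GPC2*, -0.84 and -0.61 for *TGFBR3*). *CSPG5*, with a mean of 0.510 RPKM, passed the filter only through the isoform lines, as it was 0.267 RPKM in EV. *TGFBR3*, with a mean of 0.576 RPKM, passed it only through EV (0.819 RPKM). Their calls thus depend on the filter. Both calls of *TGFBR3* and *CSPG5* and the TBX3iso2 call of *GPC2* were lost with a pseudocount of 1 RPKM. The *TGFBR3* calls were also lost without EV replicate 1, and for TBX3iso2 without EV replicate 2, TBX3iso2 replicate 2 or the filter. The *CSPG5* and *GPC2* calls of TBX3iso2 were lost without EV replicate 2.

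*GPC4* was 0.730 and 0.679 RPKM in EV, 2.07 and 1.82 RPKM with TBX3iso1 and 2.53 and 2.06 RPKM with TBX3iso2. Its level stayed far below that of *GPC1* in every library. *SDC3* was 11.5 and 10.1 RPKM in EV, 8.93 and 8.14 RPKM with TBX3iso1 and 4.39 and 4.27 RPKM with TBX3iso2. It was called lower with TBX3iso2 against both EV (-1.29) and TBX3iso1 (-0.96, limma adjusted p = 0.00122), so within the syndecan family *SDC2* and *SDC3* had values on opposite sides of EV with this isoform.

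Among the enzymes that build the sugar chains, calls were counted for each branch, and these lists are too short to be read against the 7.46% of all genes called higher and 14.1% lower with TBX3iso1, or the 8.94% and 12.3% with TBX3iso2. Of 12 tested genes for heparan sulfate 1 was called in each comparison with EV, *HS6ST2* (a 6-O-sulfotransferase), at 0.62 and 0.72, and the first call was lost with a pseudocount of 1 RPKM and without EV replicate 2. Of 15 tested genes for chondroitin and dermatan sulfate, TBX3iso1 had 1 call higher and 1 lower, and TBX3iso2 had 1 higher and 4 lower. *CHSY3*, a chondroitin synthase, was higher with both isoforms (1.30 and 1.27, limma adjusted p = 0.000184 and 0.000204). *UST*, a uronyl 2-O-sulfotransferase, was called lower with both, from 2.76 and 2.79 RPKM in EV to 1.04 and 1.14 RPKM with TBX3iso1 and 1.46 and 1.23 RPKM with TBX3iso2. *CHST15*, *DSEL* and *CSGALNACT1* were lower with TBX3iso2 (-0.74, -0.71 and -0.74), and the calls of *DSEL* and *CSGALNACT1* were lost with a pseudocount of 1 RPKM and with quantile normalization. The difference in the number of calls between the branches was not tested.

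Of 12 tested genes for the linker and its precursors, *PAPSS2*, which makes the sulfate donor, and the sulfate transporter *SLC26A2* were called higher with both isoforms. *PAPSS2* was 1.51 and 1.48 RPKM in EV, 4.99 and 4.80 RPKM with TBX3iso1 and 3.28 and 2.62 RPKM with TBX3iso2, with log2 fold changes of 1.65 and 0.93. *SLC26A2* rose by 1.06 and 0.88. *UGDH*, which makes UDP-glucuronate, was called lower with TBX3iso1 by 1.06, from 48.4 and 50.5 RPKM to 23.8 and 23.4 RPKM. With TBX3iso2 it was -0.50 (limma adjusted p = 0.00267), under the fold threshold.

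For hyaluronan, to which versican binds, 5 genes were tested. The synthase *HAS2* was 2.53 and 2.90 RPKM in EV, 4.57 and 4.63 RPKM with TBX3iso1 and 2.06 and 1.42 RPKM with TBX3iso2. It was called higher with TBX3iso1 (0.74) and lower with TBX3iso2 (-0.63), and the isoforms differed by -1.37 (limma adjusted p = 0.00282). The *HAS2* call of TBX3iso1 was lost without EV replicate 1, and that of TBX3iso2 was lost without either EV library, without replicate 2 of TBX3iso2, without the filter, with a pseudocount of 1 RPKM and with quantile normalization. *HAS3* was called higher with both isoforms (0.69 and 0.99), and the first of these calls was lost with a pseudocount of 1 RPKM.

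Among 14 tested genes for breakdown, the proteases *ADAMTS9* and *ADAMTS1*, which cleave versican, were called higher with TBX3iso1, by 2.03 and 1.57. *ADAMTS9* was 0.535 and 0.580 RPKM in EV, 2.83 and 2.35 RPKM with TBX3iso1 and 0.735 and 0.472 RPKM with TBX3iso2. The isoforms differed by -1.95 for *ADAMTS9* (limma adjusted p = 0.00148) and by -0.68 for *ADAMTS1* (adjusted p = 0.0229), which with TBX3iso2 still exceeded EV by 0.89, a call lost with a pseudocount of 1 RPKM. The difference for *ADAMTS1* was no longer called without EV replicate 2, without either TBX3iso1 library or without the filter. *ADAMTS15* differed by -0.59 and lost its call without EV replicate 1 or 2, without TBX3iso1 replicate 1 or without TBX3iso2 replicate 2. *HPSE*, the heparanase, was called lower with TBX3iso1 (-1.10), and the sulfatase *SULF2* was called higher with TBX3iso2 (0.76). The other isoform went the same way under the fold threshold. *HPSE* was -0.57 with TBX3iso2 (limma adjusted p = 0.0120) and *SULF2* was 0.54 with TBX3iso1 (adjusted p = 0.00314). The lysosomal gene *HGSNAT* was called higher with TBX3iso1 (0.93), *NAGLU* was called lower with TBX3iso2 (-0.69) and *IDUA* was called lower with both. With TBX3iso1 *NAGLU* was -0.55 (limma adjusted p = 0.00268), under the fold threshold. The *IDUA* value was -0.66 with TBX3iso1, and that call was lost without either EV library, without TBX3iso1 replicate 2 and in 5 other settings.

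Of 13 tested binding partners, the growth factors *TGFB2* and *TGFB3* were called lower with both isoforms. *TGFB2* was 39.9 and 41.7 RPKM in EV, 14.3 and 12.6 RPKM with TBX3iso1 and 18.1 and 14.8 RPKM with TBX3iso2, and its log2 fold changes were -1.60 and -1.31 (limma adjusted p = 4.70e-05 and 0.000115). *TGFB3* was lower by -0.89 and -0.76. *CASK*, which binds the tails of syndecans, was also lower with both (-1.20 and -0.90), and *VEGFA* was called lower with TBX3iso2 (-0.75). With TBX3iso1 *VEGFA* was -0.33 (limma adjusted p = 0.0112), under the fold threshold. *TLR2*, a receptor for biglycan, was higher with both (0.86 and 1.12). *TLR4*, in the same list, was not called with either isoform (0.05 and 0.04, limma adjusted p = 0.787 and 0.796). *ITGA2*, a collagen receptor chain, was called higher with TBX3iso1 (0.68), a call lost without either EV library and without TBX3iso1 replicate 1.

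Markers of other cell types were read because *BGN*, *DCN* and *VCAN* are also products of stroma. Of 8 fibroblast markers 2 had a mean of at least 0.5 RPKM in EV and TBX3iso1. *COL1A2*, *COL3A1*, *PDGFRB*, *FAP* and *THY1* were at or below 0.354 RPKM in every library. The summed level was 12.8 to 12.9 RPKM in EV, 11.3 to 12.4 RPKM with TBX3iso1 and 7.19 to 7.61 RPKM with TBX3iso2, and it was nearly all *PDGFRA* and *COL1A1*. *PDGFRA* was 8.08 and 7.98 RPKM in EV, 3.63 and 3.28 RPKM with TBX3iso1 and 0.0111 and 0.0132 RPKM with TBX3iso2, while *COL1A1* was called higher with both isoforms (0.77 and 0.70). The 5 endothelial markers summed to 7.41 to 7.77 RPKM in EV and to between 1.32 and 1.49 RPKM in the isoform libraries, nearly all of it *PECAM1*. The 5 leukocyte markers summed to 52.7 to 55.0 RPKM in EV and to between 36.2 and 36.8 RPKM in the isoform libraries, nearly all of it *CD68* and *CD14*, with *PTPRC* at or below 0.0102 RPKM. *PECAM1* and *CD14* were thus low in the same libraries as *BGN*, and their part in its level was not tested. In these bulk libraries fewer cells with a transcript and less transcript per cell cannot be told apart.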

How the data were processed

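Stranded mRNA libraries of 6 samples were sequenced as paired-end reads. Alignment was to hg19 with TopHat, run by the authors in Galaxy, and Partek Genomics Suite gave the RPKM. Versions and the gene annotation are not given in the sources used here. The deposited values are RPKM on the linear scale, and a further line gives the alignments of each library. Samples were grouped by their labelled construct, 2 libraries for each of 3 lines.

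A pseudocount of 0.1 RPKM was added before the log2 transform. Genes averaging 0.5 RPKM or more (12805 of 20824) were fitted with limma 3.58.1 in R 4.3.3, with 1 mean per line, trended empirical Bayes and Benjamini-Hochberg adjustment across them. The study used ANOVA on RPKM with the same thresholds. The comparisons made were 3. The fit was tested on simulated data. An exact permutation test over the 4 libraries of a pair of lines cannot pass 0.05, so none was run.

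The members, lists and tests were chosen with earlier results of these data known. Named genes were the 10 members, *TBX3*, the 5 genes nearest in profile to *BGN* and to *SPOCK1*, up to 3 rises and 3 falls called in each list and comparison, and the marker genes. The text names every marker gene that was tested and some of those below the filter.

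The table gives no counts. For the low members, RPKM values in the 6 libraries were set against the relative depth of the libraries, and the smallest whole numbers in the same proportion were taken. The reads are these numbers or a multiple. Of 3714 low genes 3191 (85.9%) lay on such steps. Coordinates are from GENCODE on GRCh37 and promoter windows from RefSeq on GRCh38.p14. Transcript lengths were found for 92.2% of the genes tested. The alternatives tried were a pseudocount of 1 or 0.01 RPKM, no filter, a filter at 2 RPKM, median-ratio scaling, quantile normalization, a fit of only the lines compared, a replicate block, no trend, no moderation, and leaving out each library.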

Additional observations from a re-analysis of the deposited data

Results flagged for a closer look

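Between the isoform lines 10 of the 83 tested genes of the proteoglycan lists (12.0%) and the marker *PDGFRA* were called lower with TBX3iso2, by limma's test with Benjamini-Hochberg adjustment and the fold threshold, where 2.82% of all genes tested were. None of the 83 was called higher, where 3.47% of all genes were. At an unadjusted p under 0.05 in limma 12 were higher, a threshold at which no share of all genes was counted. The 10 list genes fell to 7 with a pseudocount of 1 RPKM, to 7 with a filter at 2 RPKM and to 1 without moderation of the variance. The log2 differences of TBX3iso2 from TBX3iso1 were -1.95 for *ADAMTS9*, -1.50 for *SRGN*, -1.37 for *HAS2*, -0.96 for *SDC3*, -0.83 for *HGSNAT*, -0.78 for *DSEL*, -0.75 for *CHST15*, -0.72 for *PAPSS2*, -0.68 for *ADAMTS1* and -0.59 for *ADAMTS15* (adjusted p between 0.00122 and 0.0229). The difference in *PAPSS2* was not called without TBX3iso1 replicate 1 or TBX3iso2 replicate 2. *PDGFRA* differed by -4.98 (adjusted p = 5.69e-06). *EPCAM* lay below EV in both TBX3iso1 libraries and above EV in both TBX3iso2 libraries, and the isoforms differed by 0.37 (limma adjusted p = 0.0363), under the fold threshold. Also under the fold threshold, and outside the naming rule, were *HMMR*, *SLC35B2* and *B4GALT7*, whose isoform libraries too lay on opposite sides of EV. *HMMR*, a hyaluronan receptor, was 21.5 and 21.5 RPKM in EV, 20.7 and 21.1 RPKM with TBX3iso1 and 30.5 and 27.6 RPKM with TBX3iso2, and was higher with TBX3iso2 than with TBX3iso1 by 0.47 (adjusted p = 0.00740). *SLC35B2*, a transporter of the sulfate donor, differed by -0.33 (adjusted p = 0.0309) and *B4GALT7*, a linker enzyme, by -0.30 (adjusted p = 0.0388).

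The libraries of the isoforms lay on opposite sides of both EV libraries for *SPOCK1*, with a difference of -3.26, and for *LUM* (-1.25) and *KDR* (-0.98), which are at or below 0.524 RPKM in every library. For these 3 genes the difference was not tested. No group had the 4 libraries needed to look for a deviating library.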

How the results depend on the processing

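The number of genes called for TBX3iso1 against EV was 2757 and moved past 1.5 times in 1 setting, to 1812 with a pseudocount of 1 RPKM. Between the isoforms it was 805, and it moved to 419 with a pseudocount of 1 RPKM, 504 with a filter at 2 RPKM and 199 without moderation. For TBX3iso2 against EV the 2720 genes stayed within 1.5 times in all settings. With 1 library left out the counts were 2264 to 3095, 2283 to 3172 and 627 to 913, with a lone library taken to vary like the others. Median-ratio scaling gave 1263 higher and 1449 lower for TBX3iso1 and 351 higher and 440 lower between the isoforms.

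The 1 called member against EV (*HSPG2*) became 0 in both comparisons with a pseudocount of 1 RPKM, median-ratio scaling, no trend and no moderation, and for TBX3iso1 also with quantile normalization. With 1 library left out the count was 0 to 1 in both comparisons and 0 between the isoforms. Without the filter the count was again 1, but of *VCAN* for TBX3iso1 and *SDC2* for TBX3iso2. Directions turned only for differences that were not called: *AGRN* with TBX3iso1 (-0.0437 to 0.245 with 1 library left out, the lowest without TBX3iso1 replicate 1), and between the isoforms *SDC1* (-0.0456 with median-ratio scaling, -0.0433 to 0.0540 with 1 library left out, below 0 without TBX3iso1 replicate 1 or TBX3iso2 replicate 2), *HSPG2* (-0.0482 with median-ratio scaling, -0.0548 with quantile normalization, -0.282 to 0.286 with 1 library left out, below 0 without TBX3iso1 replicate 2 or TBX3iso2 replicate 1) and *AGRN* (-0.0674 to 0.221, below 0 without TBX3iso1 replicate 2). The log2 differences of *BGN* from EV ranged from -3.23 to -2.27 and from -3.03 to -2.18, and those of *SPOCK1* from 0.98 to 1.53 and from -2.19 to -0.91. *DCN*, which was below the filter, turned as well and ranged from -0.38 to 0.48 with TBX3iso1. The cause of these shifts was not tested.

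The labels number the libraries 1 and 2 in each line without saying that a number marks a shared batch, and 2 pairs cannot show pairing, so the numbers were not taken to pair the samples. Same-numbered libraries deviated with r of 0.220, 0.114 and 0.499 across genes. A replicate block gave 2838, 2795 and 900 called genes, and 1, 1 and 0 called members.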
